A study of Mus musculus with 8 samples.

Results

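Genes of the bone morphogenetic protein (BMP) and growth differentiation factor (GDF) pathway were followed in sorted mouse skeletal stem and progenitor cells with and without the DNA demethylase gene Tet1. The genes were chosen by symbol, as 12 ligands, 4 receptors, 4 SMADs, 4 ID targets and 9 antagonists or modulators. All 33 were found among the 55471 gene entries of the count table, all 33 passed the filter on low counts, and they took 0.165% to 0.1997% of a library's counts. Cells were sorted from neonatal femurs (days 3 to 5) as skeletal stem cells (SSC) or as bone cartilage stromal progenitors (BCSP), a downstream population of the same lineage. The 4 groups were Tet1 knockout (KO) SSC, wild-type (WT) SSC, Tet1 KO BCSP and WT BCSP, with 2 libraries each. The titles number the libraries of each group round 1 and round 2, without saying what a round was. Every library, wild type included, carries the strain name B6;129S4-Tet1tm1.1Jae/J, so the Tet1 allele is the only labelled difference between KO and WT. The labels name no Cre driver, and the sources used here do not give the sex, the number of pups or whether pups were pooled. Nothing says that the 2 libraries of a group came from separate animals, so p-values measure only the spread between these samples.

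BMPs and GDFs are secreted ligands of the TGF-beta superfamily that bind pairs of type I and type II receptor kinases. The activated type I receptor phosphorylates Smad1, Smad5 and Smad9, which enter the nucleus with Smad4 and switch on target genes such as the Id genes. Secreted antagonists such as noggin, chordin and gremlin bind the ligands and keep them from their receptors, and in the growing skeleton this balance shapes cartilage, joints and bone.

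The libraries held 104782544 to 168004119 counts. Levels are given as CPM, counts per 1000000 counts after TMM scaling, which corrects for composition. A gene was called changed when its Benjamini-Hochberg adjusted p in edgeR's quasi-likelihood test, adjusted over 22153 tested genes, was under 0.05, and log2 fold changes are given ± SE. Tet1 itself had 7.26 and 11.8 CPM in KO SSC, against 15.6 and 19.6 CPM in WT SSC. In BCSP it had 10.8 and 12 CPM in KO, against 21.6 and 11 CPM in WT. The KO and WT libraries overlapped in BCSP but not in SSC, and the difference over both cell types (log2 fold change -0.70 ± 0.23, SE) did not pass (adjusted p = 0.608). The sources used here do not place the deleted part of the gene, so reads summed along the gene can only partly check the genotype labels. Cartilage genes dominated every library: 8 chondrocyte markers summed to 283921 to 368246 CPM, most of it Col2a1, the main cartilage collagen. The 2 BCSP libraries of round 2 stood apart in how counts depended on exon length, with a Spearman correlation across 12479 genes of -0.511 in WT and 0.362 in KO, against -0.243 to 0.230 in the other 6 libraries. In bulk samples like these, fewer cells of a type and less RNA per cell cannot be told apart.

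Read per exon length as TPM (transcripts per 1000000 transcripts, mean ± SD over the 8 libraries), the targets and a few secreted factors were the most abundant members. Id1 led with 1086 ± 189 TPM, followed by Id3 with 524 ± 87.4 TPM and Id2 with 248 ± 32.5 TPM, with no overlap between these neighbours. These 3 encode dominant-negative partners of basic helix-loop-helix transcription factors and are textbook direct targets of BMP signalling. Id4 was far lower, at 21.3 ± 4.33 TPM, and its range did not overlap that of Id2.

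Among the ligands, Bmp2, an inducer of cartilage and bone, was the most abundant at 165 ± 39.6 TPM. Gdf10, also called BMP3B, followed at 77.1 ± 40.0 TPM, and its range of 34.0 to 126 TPM reached into that of Bmp2. Bmp7 (38.2 ± 14.3 TPM), Bmp5 (30.0 ± 6.72 TPM) and Bmp6 (18.1 ± 2.91 TPM), ligands of 1 subfamily, formed a middle group in which Bmp7 and Bmp5 overlapped and Bmp6 lay below both. Gdf5, the joint-forming ligand, stood at 6.29 ± 1.19 TPM, Bmp3, a ligand that dampens BMP signalling, at 5.70 ± 2.31 TPM and Bmp4 at 5.15 ± 1.58 TPM. These 3 overlapped each other across the libraries. The other 4 ligands were lowest: Gdf11 (1.61 ± 0.469 TPM), Bmp8a (1.60 ± 0.944 TPM), Gdf7 (0.986 ± 0.752 TPM) and Gdf6 (0.825 ± 0.354 TPM). Gdf7 had as few as 8 counts in a library and Gdf6 as few as 21.

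All receptor and SMAD genes of the list were expressed. Bmpr1a, a type I receptor, stood at 45.7 ± 7.72 TPM, the type I receptor Acvr1 (ALK2) at 34.4 ± 6.14 TPM and the type II receptor Bmpr2 at 13.4 ± 3.59 TPM. Bmpr1b, the type I receptor of cartilage condensations, was lowest of the 4, at 2.06 ± 0.432 TPM, with no overlap with the other 3. Smad5 (37.6 ± 5.99 TPM) and Smad1 (27.0 ± 5.49 TPM) overlapped each other, and the third receptor-regulated SMAD of the pathway, Smad9, was lower at 11.8 ± 2.81 TPM. The inhibitory Smad6 stood at 24.9 ± 2.68 TPM.

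The extracellular modulators covered a wide range. Twsg1, a chordin-binding modulator, had 196 ± 38.9 TPM and Nog, which encodes noggin, had 124 ± 42.6 TPM, with overlap. The gremlin gene Grem1 (40.3 ± 12.5 TPM), the chordin-related Bmper (22.7 ± 3.81 TPM) and the decoy receptor gene Bambi (21.8 ± 2.69 TPM) came next. Chrd (chordin) stood at 11.6 ± 2.33 TPM, the co-receptor gene Rgmb at 8.94 ± 1.62 TPM, and the chordin-like genes Chrdl1 and Chrdl2 at 5.75 ± 3.49 and 4.12 ± 1.44 TPM. By the ratio of the highest to the lowest library in CPM, the steadiest members were Smad5 (1.28), Smad6 (1.28) and Bmp6 (1.303). Apart from the 3 ligands with the fewest counts, the widest ratios were those of Chrdl1 (5.05), Gdf10 (4.03) and Bmp3 (3.13).

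**Figure D1:**
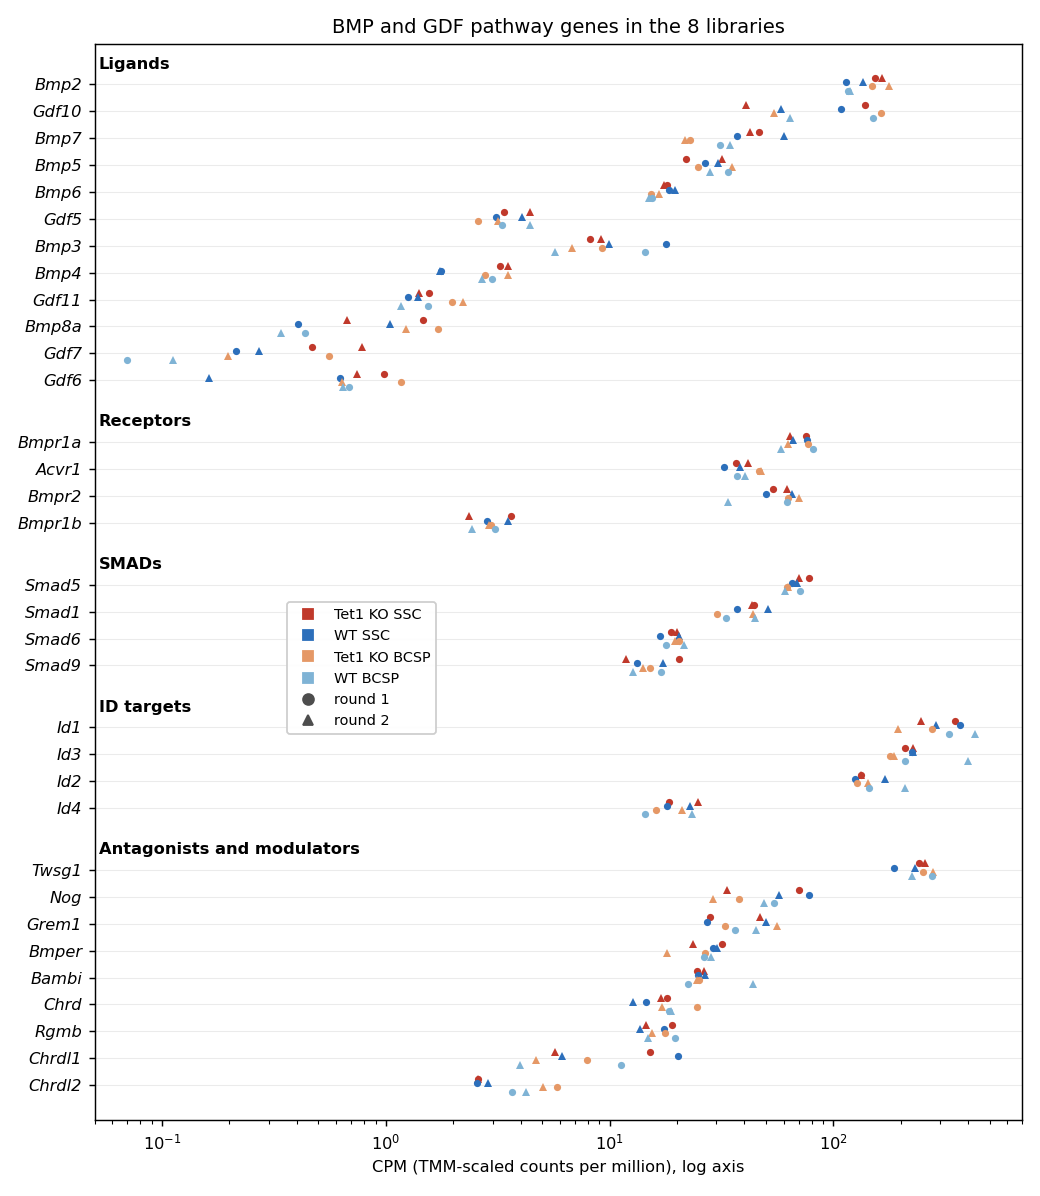
CPM on a log axis for the 33 members in each of the 8 libraries, ordered by class and by level per exon length within it. Colours mark the 4 groups, circles round 1 and triangles round 2. The circles and triangles of Gdf10, Chrdl1 and Grem1 separate fully.

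The main question of the design is what loss of Tet1 changed. The main genotype and cell type tests hold no term for the round, so differences between the rounds count in their spread. In SSC, 0 of the 33 members were called between KO and WT, where 0.00451% of all genes were called. DESeq2 and limma-voom also called 0 members, and 1 member had an unadjusted p under 0.05 by edgeR, beside 1.2% of all genes. In 10 members the 2 KO and the 2 WT libraries did not overlap, 8 higher and 2 lower in KO, or 30.3% beside 27.6% of all genes. The median log2 fold change of the members was 0.00 and that of all genes 0.01.

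The member with the lowest p in SSC was Bmp4, a ligand of early cartilage and bone formation. It had 3.23 and 3.53 CPM in KO SSC, against 1.77 and 1.74 CPM in WT SSC. Both KO libraries were above both WT libraries, at 1.92 times the WT level (log2 fold change 0.94 ± 0.36, adjusted p = 1). Bmp3 had 8.14 and 9.11 CPM in KO SSC, against 17.8 and 9.96 CPM in WT SSC (log2 fold change -0.69 ± 0.41, adjusted p = 1). The WT library of round 1 was highest, and the other 3 libraries lay within 8.14 to 9.96 CPM. The low-level ligands Gdf6 (log2 fold change 1.13 ± 0.72) and Gdf7 (1.37 ± 0.90) and the abundant Bmp2 (0.35 ± 0.23) complete the 5 lowest p-values, each with an adjusted p of 1. In each of these 3 both KO libraries were above both WT libraries.

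In BCSP, again 0 of 33 members were called, beside 0.00451% of all genes, and DESeq2 and limma-voom called 0. With an unadjusted p under 0.05 there were 5 members (15.2%), beside 6.19% of all genes. In 13 members, 39.4%, KO and WT did not overlap, 7 higher and 6 lower in KO, beside 33.3% of all genes. The median log2 fold change was 0.00 for the members and 0.01 for all genes.

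The ID targets had a median log2 fold change of -0.54 in KO BCSP. All 4 lay below 0 with that library, the WT BCSP library of round 2, and 3 of 4 without it. Id3 had 180 and 186 CPM in KO BCSP, against 209 and 398 CPM in WT BCSP. Id1 had 277 and 195 CPM in KO BCSP, against 328 and 430 CPM in WT BCSP. Neither gene overlapped, and in both the WT round 2 library was the highest of all 8 libraries. The log2 fold changes were -0.73 ± 0.29 for Id3 and -0.68 ± 0.29 for Id1, each with an adjusted p of 0.686. Without the WT round 2 BCSP library, which also had the most negative length dependence, they were -0.19 ± 0.24 and -0.47 ± 0.30 (adjusted p = 0.995 and 0.990). With an offset for exon length they were -0.62 ± 0.26 and -0.66 ± 0.27, each with an adjusted p of 0.688. Id2 had 128 and 142 CPM in KO BCSP, against 145 and 209 CPM in WT BCSP, and Id4 had 16.2 and 21.1 CPM in KO BCSP, against 14.4 and 23.4 CPM in WT BCSP. Id2 thus did not overlap and Id4 did. The log2 fold changes were -0.39 ± 0.26 for Id2 and -0.02 ± 0.29 for Id4 (adjusted p = 0.687 and 0.992). Without the WT round 2 library they were -0.10 ± 0.26 and 0.37 ± 0.30 (adjusted p = 1 and 0.990), so that Id4 turned its direction, as it also did with the length offset (0.03 ± 0.27, adjusted p = 0.989).

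The other members among the 5 lowest p-values in BCSP were ligands. Bmp7 had 22.8 and 21.7 CPM in KO BCSP, against 31.3 and 34.4 CPM in WT BCSP (log2 fold change -0.56 ± 0.25, adjusted p = 0.686). Bmp8a, a low-level ligand, had 1.72 and 1.23 CPM in KO BCSP, against 0.437 and 0.342 CPM in WT BCSP (log2 fold change 1.92 ± 0.66, adjusted p = 0.686). Neither gene overlapped between the genotypes. Gdf7 had 0.559 and 0.197 CPM in KO BCSP, against 0.0699 and 0.112 CPM in WT BCSP (log2 fold change 2.04 ± 0.93, adjusted p = 0.686), a difference that rests on few counts.

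Whether the KO effect differed between the cell types was tested by the interaction. It called 0 of 33 members, beside 0% of all genes, with 0 members at an unadjusted p under 0.05 (1.27% of all genes) and 0 by DESeq2 and limma-voom. The lowest p-values were those of Id3, with a KO effect 0.68 ± 0.41 higher on the log2 scale in SSC than in BCSP, Bmp4 (0.79 ± 0.51), Bmp8a (-1.36 ± 0.91), Id1 (0.55 ± 0.41) and Bmp7 (0.43 ± 0.35), all with an adjusted p of 1. The Id values of KO BCSP were therefore not shown to differ from those in SSC, where Id1 and Id3 had log2 fold changes of -0.13 ± 0.29 and -0.05 ± 0.29.

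Set over both cell types, 4 KO against 4 WT libraries, 0 of 33 members were called, beside 0.0135% of all genes. DESeq2 and limma-voom called 0, and 4 members had an unadjusted p under 0.05 (12.1%), beside 7.91% of all genes. Bmp2 was the only member whose genotypes did not overlap (3.03% of members, beside 4.37% of all genes). It had 153, 165, 149 and 177 CPM in the KO libraries, against 114, 136, 116 and 118 CPM in the WT libraries, in the order SSC round 1, SSC round 2, BCSP round 1, BCSP round 2. The KO mean was 161 ± 12.3 CPM and the WT mean 121 ± 9.92 CPM (SD, n = 4 each), for a log2 fold change of 0.41 ± 0.14 with an adjusted p of 0.613. Within round 1 it was 0.39 ± 0.15 and within round 2 0.42 ± 0.32.

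Nog had 70.2, 33.4, 37.8 and 28.9 CPM in the KO libraries, against 77.5, 57.4, 54.4 and 49.0 CPM in the WT libraries. Within each cell type and round the KO library was the lower one, but the KO SSC library of round 1 lay above 3 WT libraries (log2 fold change -0.51 ± 0.21, adjusted p = 0.614). Within round 1 the difference was -0.33 ± 0.15 and within round 2 -0.78 ± 0.30 (adjusted p = 0.504 and 0.289). Gdf7 (log2 fold change 1.70 ± 0.61, adjusted p = 0.614), Bmp8a (1.23 ± 0.48, adjusted p = 0.614) and Bmp4 (0.54 ± 0.26, adjusted p = 0.632) complete the 5. The Bmp8a difference was 1.92 ± 0.51 in round 1 and 0.58 ± 0.72 in round 2, in fits with a single library of each group. Over all settings its adjusted p ran from 0.0247 to 1. Bmp3 stood at -0.89 ± 0.20 in round 1 and at 0.06 ± 0.34 in round 2 in the same fits.

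By class, the ligands had a median log2 fold change of 0.23 over both cell types, the receptors 0.10, the SMADs 0.03, the ID targets -0.33 and the antagonists or modulators 0.03, beside 0.02 for all genes. The receptors and SMADs spanned only -0.04 to 0.23. Sums of some marker lists of other cells did not overlap between the genotypes. Among all single genes, 27.6% did not overlap in SSC, 33.3% in BCSP and 4.37% over both cell types. The 6 skeletal muscle genes summed to 7.22 to 10.9 CPM in the KO libraries, against 11.4 to 25.5 CPM in the WT libraries. Of these, Myh3, Myh8 and Ckm were at 0 in at least 1 library. The 6 endothelial genes summed to 1.23 to 3.07 CPM in the KO libraries, against 0.314 to 1.15 CPM in the WT libraries, with Cdh5, Kdr, Tek, Tie1 and Esam at 0 in at least 1 library. In BCSP, 3 joint cartilage genes summed to 935 and 1026 CPM in KO, against 563 and 561 CPM in WT. The 4 adipogenic and marrow stromal genes summed to 15.7 and 17.9 CPM in KO BCSP, against 9.16 and 8.45 CPM in WT BCSP. In SSC they summed to 7.56 and 9.94 CPM in KO, against 6.05 and 6.03 CPM in WT. None of these markers was called. The 4 tendon and fibrous genes summed to 53.5 and 55.5 CPM in KO SSC, against 39.0 and 39.7 CPM in WT SSC, and overlapped in BCSP. In SSC, 6 macrophage and osteoclast genes summed to 54.5 and 47.8 CPM in KO, against 47.5 and 44.0 CPM in WT. Of these, Ptprc and Adgre1 were at 0 in at least 1 library. The 5 pericyte and smooth muscle genes summed to 1090 and 1103 CPM in KO SSC, against 1126 and 1215 CPM in WT SSC. Both lists overlapped in BCSP. Marker lists whose sums overlapped between the genotypes in each cell type are not named here. The part of the named lists in the genotype differences was not tested.

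**Figure D2:**
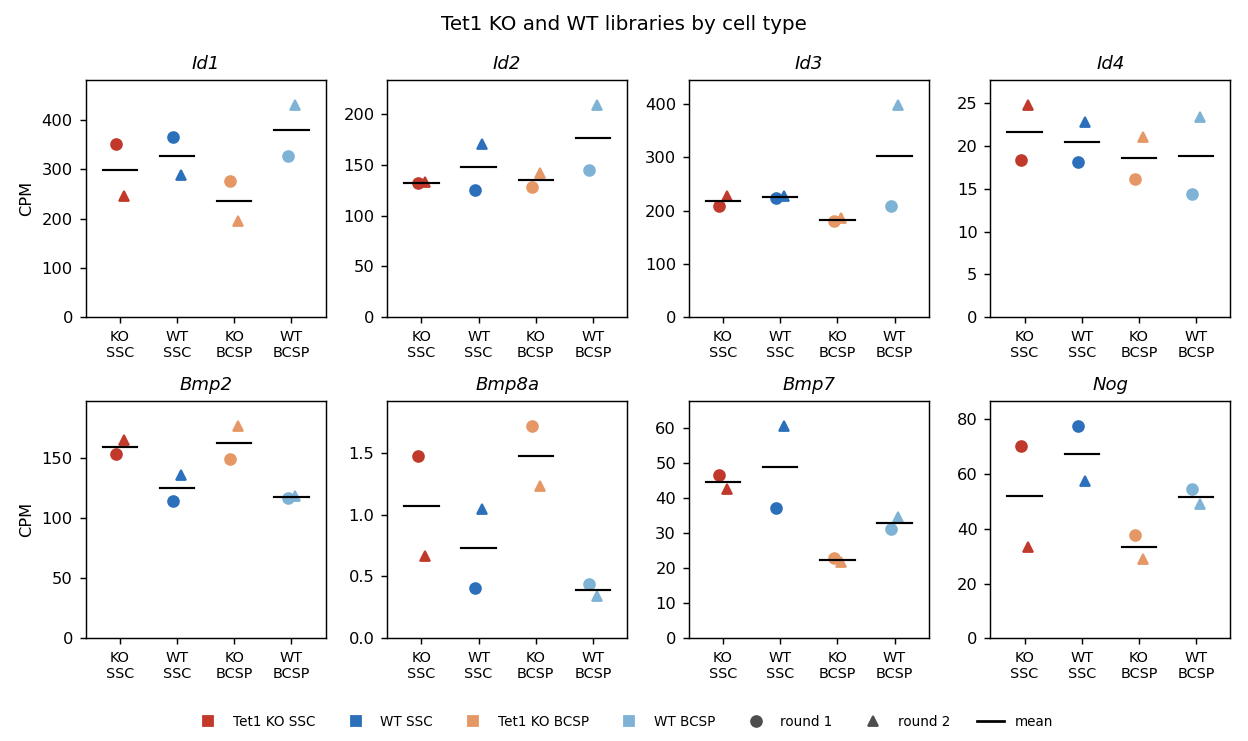
CPM in each library for members with low p-values between the genotypes, KO left of WT in each cell type, with lines at group means of 2 libraries. All KO points of Bmp2 lie above all of its WT points, and the highest Id3 point, 398 CPM, is 1 WT BCSP library.

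Between the 2 sorted populations, SSC against BCSP over both genotypes, 0 of 33 members were called by edgeR, beside 0.00451% of all genes, and limma-voom called 0. DESeq2 called 1, Bmp7, where it called 39 of all genes. By edgeR, 4 members had an unadjusted p under 0.05 (12.1%), beside 3.71% of all genes, and 3 members did not overlap (9.09%), beside 2.53% of all genes. The 1 gene called over all genes was Eng, which encodes endoglin (CD105), a BMP co-receptor and a marker of the BCSP sort. It averaged 2.92 CPM in SSC and 42.0 CPM in BCSP (log2 fold change -3.84 ± 0.21, adjusted p = 1.26e-06), which checks the sort and is no finding.

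Bmp7 had 46.4, 42.5, 37.1 and 60.4 CPM in the SSC libraries, against 22.8, 21.7, 31.3 and 34.4 CPM in the BCSP libraries, in the order KO round 1, KO round 2, WT round 1, WT round 2. All SSC libraries were above all BCSP libraries, with means of 46.6 ± 9.98 CPM in SSC and 27.5 ± 6.28 CPM in BCSP (SD, n = 4 each). The log2 fold change was 0.78 ± 0.17 with an adjusted p of 0.475. It was 0.62 ± 0.16 within round 1 and 0.90 ± 0.30 within round 2, in fits with a single library of each group. Over all settings the fold change ran from 0.62 to 0.95 and the adjusted p from 0.0045 (edgeR without a filter on low counts) to 1, with DESeq2 at 0.0237.

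Chrdl2, a secreted chordin-like antagonist, went the other way. It had 2.59, 2.59, 2.57 and 2.87 CPM in the SSC libraries, against 5.79, 5.02, 3.67 and 4.24 CPM in the BCSP libraries. Its SSC libraries were all below its BCSP libraries, with the KO BCSP libraries highest (log2 fold change -0.80 ± 0.22, adjusted p = 0.884). Chrd averaged 15.6 ± 2.42 CPM in SSC and 19.7 ± 3.26 CPM in BCSP with overlap (log2 fold change -0.35 ± 0.16, adjusted p = 1). Nog averaged 59.6 ± 19.4 CPM in SSC and 42.5 ± 11.4 CPM in BCSP, also with overlap (log2 fold change 0.51 ± 0.21, adjusted p = 1). Gdf7 is the last of the 5, at 1.05 ± 0.60 (adjusted p = 1).

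Bmp6 was the third member without overlap, with 18.1, 17.6, 18.5 and 19.5 CPM in the SSC libraries, against 15.3, 16.6, 15.4 and 15.0 CPM in the BCSP libraries. Bmp5, of the same subfamily as Bmp6 and Bmp7, averaged 27.8 ± 4.47 CPM in SSC and 30.4 ± 4.84 CPM in BCSP. Within rounds, in fits with a single library of each group, Nog had 0.69 ± 0.15 in round 1 and 0.22 ± 0.30 in round 2 on the log2 scale. Chrdl1 had 0.88 ± 0.19 and 0.45 ± 0.36. Beside these differences, 5 pericyte and smooth muscle genes summed to 1090 to 1215 CPM in SSC, against 821 to 989 CPM in BCSP, and 4 tendon and fibrous genes to 39.0 to 55.5 CPM in SSC, against 60.1 to 72.2 CPM in BCSP. The part of these markers was not tested.

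**Figure D3:**
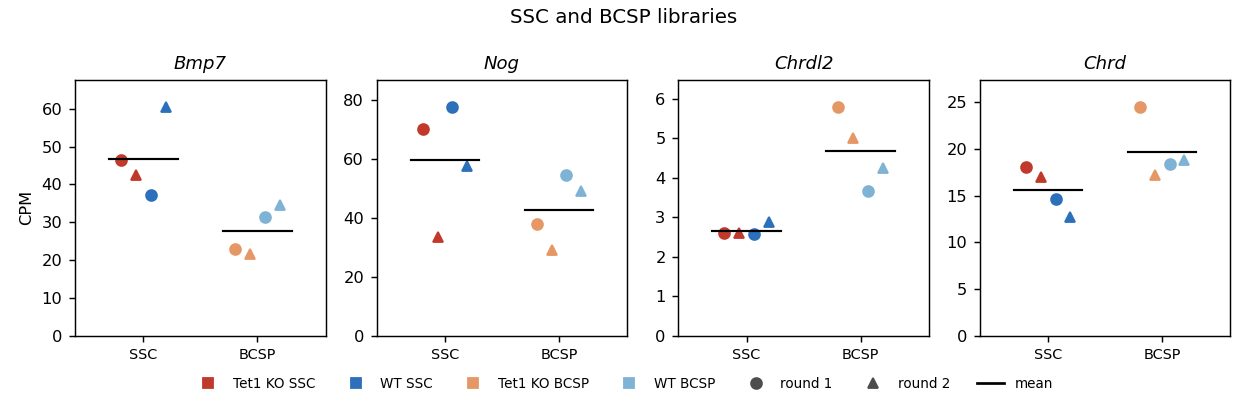
CPM in each library for Bmp7, Nog, Chrdl2 and Chrd, SSC left of BCSP, with lines at means of 4 libraries. Bmp7 and Chrdl2 separate fully in opposite directions, while Nog and Chrd overlap.

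Of the 6 comparisons, only that of the rounds called members in the edgeR test. Round 2 against round 1, with cell type and genotype in the model, called 3 of 33 members, 1 higher and 2 lower in round 2. That is 9.09% of the members, beside 2.15% of all genes (1.4% higher and 0.745% lower). In 6 members the rounds did not overlap (18.2%), 2 higher and 4 lower, beside 7.62% of all genes.

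The 2 called members with a promoter in the RefSeq table (build GRCm38.p6) are shown by the 250 bases before their start, so that the sequence at the called genes can be seen. The motifs searched on both strands were GGCGCC, a GC-rich element bound by Smad1 and Smad5, CAGAC, a general SMAD-binding element, and the TATA motif TATAAA. Capitals mark matches, of which GGCGCC and CAGAC share no bases here. The Gdf10 window is chr14:33923337-33923586 on the plus strand and the Grem1 window chr2:113758649-113758898 on the minus strand, each printed 5′ to 3′ along its gene.
Gdf10: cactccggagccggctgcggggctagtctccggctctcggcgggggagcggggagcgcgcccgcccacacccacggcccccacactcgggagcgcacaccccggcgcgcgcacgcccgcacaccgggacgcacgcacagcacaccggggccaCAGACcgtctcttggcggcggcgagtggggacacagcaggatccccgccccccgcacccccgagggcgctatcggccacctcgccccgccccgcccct
Grem1: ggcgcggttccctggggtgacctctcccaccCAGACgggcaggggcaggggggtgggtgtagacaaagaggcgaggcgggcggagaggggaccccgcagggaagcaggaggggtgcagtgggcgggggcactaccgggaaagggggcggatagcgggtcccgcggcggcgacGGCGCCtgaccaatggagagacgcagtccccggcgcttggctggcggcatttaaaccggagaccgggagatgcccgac
Both windows are rich in G and C, at 78.8% with 35 CpG dinucleotides for Gdf10 and 72.0% with 24 for Grem1, beside a median of 52.4% and 6 over all 32851 windows of the table. Gdf10 holds CAGAC once, Grem1 holds CAGAC and GGCGCC once each, and neither holds TATAAA. Of the 23 members with a window, 7 held GGCGCC (30.4%, beside 9.59% of all windows), 8 held CAGAC (34.8%, beside 42.2%) and 3 held TATAAA (13%, beside 12.4%). A GC share above 50% with a CpG ratio above 0.6 was met by 18 of 23 member windows (78.3%) and 30.8% of all windows. The member windows had a median GC share of 66% and a median of 22 CpG dinucleotides. Motif shares were not compared at like GC content. Members count 1 window per gene, while the windows of the whole table can include several of a gene. A match describes the letters only and marks no bound site. The RefSeq promoters used here held no window for Bmp2, Bmp3, Bmp7, Gdf5, Gdf6, Id1, Nog, Chrdl1, Chrdl2 or Bambi.

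Gdf10 had 40.6, 58.6, 54.2 and 64.0 CPM in the libraries of round 2, against 138, 108, 164 and 150 CPM in those of round 1, in the order KO SSC, WT SSC, KO BCSP, WT BCSP. The gene lies at chr14:33923587-33937983 (GENCODE M21, build GRCm38). Every round 2 library was below every round 1 library, with means of 54.4 ± 10.01 CPM in round 2 and 140 ± 23.7 CPM in round 1 (SD, n = 4 each). Gdf10 thus fell in round 2 by 1.37 on the log2 scale (SE 0.16, adjusted p = 0.00124). Within SSC the log2 fold change was -1.31 ± 0.15 and within BCSP -1.40 ± 0.41 (adjusted p = 2.44e-08 and 0.128). Fits within a cell type, here and for the members below, hold only 4 libraries, so their p-values lean on a spread shared across genes. A value that passed in SSC beside one that did not in BCSP does not show that the cell types differ.

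Chrdl1, a secreted BMP antagonist, had 5.71, 6.10, 4.69 and 3.995 CPM in round 2, against 15.1, 20.2, 7.92 and 11.2 CPM in round 1, in the same order. It too fell in round 2, without overlap (log2 fold change -1.34 ± 0.18, adjusted p = 0.00311). Within SSC it was -1.55 ± 0.19 and within BCSP -1.11 ± 0.43 (adjusted p = 7.61e-11 and 0.810).

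Grem1, which encodes the antagonist gremlin, had 47.2, 50.2, 55.7 and 45.2 CPM in round 2, against 28.1, 27.3, 32.7 and 36.4 CPM in round 1. It rose in round 2 without overlap, to a mean of 49.6 ± 4.59 CPM in round 2, against 31.1 ± 4.23 CPM in round 1 (log2 fold change 0.68 ± 0.14, adjusted p = 0.0209). The call is fragile, since leaving out any 1 of the KO SSC, WT SSC or KO BCSP libraries of either round gave an adjusted p of 0.0585 to 0.126. Within SSC the log2 fold change was 0.82 ± 0.14 and within BCSP 0.55 ± 0.39 (adjusted p = 4.39e-06 and 1). The fold change ran from 0.55 to 0.83 over all settings.

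Chrdl1 lies at chrX:143285674-143394262 and Grem1 at chr2:113746164-113758646 of the same build.

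The next members by p were Id4 and Nog, and 9 members (27.3%) had an unadjusted p under 0.05, beside 13.3% of all genes. Id4 had 24.8, 22.8, 21.1 and 23.4 CPM in round 2, against 18.4, 18.1, 16.2 and 14.4 CPM in round 1, without overlap (log2 fold change 0.46 ± 0.13, adjusted p = 0.117). Nog averaged 42.2 ± 13.3 CPM in round 2 and 60.0 ± 17.6 CPM in round 1, lower in round 2 in all 4 groups (log2 fold change -0.51 ± 0.16, adjusted p = 0.139). Nog was called within SSC (-0.74 ± 0.14, adjusted p = 5.01e-05) and stood at -0.27 ± 0.39 within BCSP (adjusted p = 1). Bmpr1a (58.6 to 66.3 CPM in round 2, against 75.8 to 80.8 CPM in round 1) and Rgmb (13.6 to 15.5 CPM, against 17.4 to 19.7 CPM) were the other members without overlap, both lower in round 2 and not called. Without the WT BCSP library of round 2, calls rose over all genes as well as among the members. That setting leaves a single WT BCSP library, and its longer list of members is not shown to be particular to the pathway.

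Markers of maturing bone moved with the rounds too. The 6 osteoblast genes summed to 92.4 to 142 CPM in round 2, against 176 to 260 CPM in round 1, and 4 of them (Bglap, Bglap2, Ibsp and Spp1) were called lower in round 2. The 4 hypertrophic chondrocyte genes summed to 359 to 650 CPM in round 2, against 504 to 1303 CPM in round 1, with overlap. Of these 4, Pth1r and Mmp13 were called lower. The 6 neutrophil genes summed to 0.131 to 1.40 CPM in round 2, against 11.2 to 178 CPM in round 1, with all 6 at 0 in at least 1 library. The 5 lymphoid genes summed to 0.293 to 0.466 CPM in round 2, against 0.958 to 44.9 CPM in round 1. The 5 sort markers summed to 72.3 to 126 CPM in round 2, against 96.0 to 183 CPM in round 1, with overlap. Hoxd13, a gene of the most distal limb, stood at 0 to 0.349 CPM in round 2, against 18.6 to 27.2 CPM in round 1, in all 4 groups. The part of these markers in the Gdf10, Chrdl1 and Grem1 differences was not tested.

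**Figure D4:**
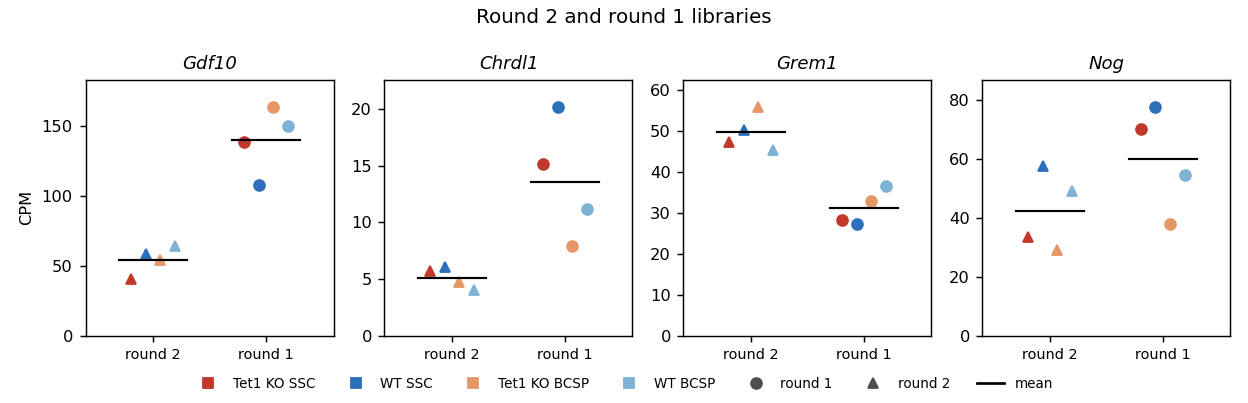
CPM in each library for Gdf10, Chrdl1, Grem1 and Nog, round 2 left of round 1, with lines at means of 4 libraries. Gdf10 and Chrdl1 are lower and Grem1 higher in every round 2 library than in any round 1 library, while Nog overlaps.

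The wider pathway was read from 45 further genes, listed by role, of which 41 passed the filter. None was called between the genotypes in SSC, in BCSP, in the interaction or over both cell types by edgeR, where 2, 3, 0 and 7 had an unadjusted p under 0.05, in that order. These are 4.88%, 7.32%, 0% and 17.1% of the 41 genes, beside 1.2%, 6.19%, 1.27% and 7.91% of all genes. Acvrl1, the type I receptor ALK1 that pairs with endoglin, had 6.50, 5.94, 10.2 and 8.94 CPM in the KO libraries, against 4.28, 3.39, 5.97 and 5.69 CPM in the WT libraries. Each KO library was above both WT libraries of its cell type, and the log2 fold changes were 0.70 ± 0.28 in SSC, 0.71 ± 0.28 in BCSP and 0.71 ± 0.18 over both (adjusted p = 0.461). DESeq2 called it (adjusted p = 0.0260), within a range of 0.026 to 0.957 over all settings. It averaged 5.03 CPM in SSC and 7.70 CPM in BCSP (log2 fold change -0.61 ± 0.18, adjusted p = 0.964).

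Nbl1, the antagonist DAN, had 16.7, 27.9, 27.6 and 30.4 CPM in the KO libraries, against 15.0, 13.2, 15.6 and 20.9 CPM in the WT libraries. It too was higher in KO within each cell type, at 0.66 ± 0.27 in SSC, 0.67 ± 0.27 in BCSP and 0.67 ± 0.18 over both on the log2 scale (adjusted p = 0.505). Only without a filter on low counts was it called (adjusted p = 0.0364), within a range of 0.0364 to 0.957 over all settings. The 8 further target genes, Msx1, Msx2, Dlx3, Dlx5, Runx2, Sp7, Hey1 and Atoh8, had a median log2 fold change of -0.39 in KO BCSP and -0.10 in KO SSC. In BCSP, 0 of 8 had an unadjusted p under 0.05 and 2 of 8 (25%) did not overlap, beside 33.3% of all genes. The interaction had its lowest p-values at Mstn, with at most 0.244 CPM in any library, and Msx2 (1.07 ± 0.55), both with an adjusted p of 1.

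Between the rounds, 1 of the 41 was called (2.44%, about the 2.15% of all genes). It was Dlx5, a homeobox gene of osteoblast and chondrocyte maturation. It had 11.5, 20.04, 10.6 and 12.9 CPM in round 2, against 33.3, 28.1, 20.07 and 24.4 CPM in round 1, in the order KO SSC, WT SSC, KO BCSP, WT BCSP. It fell in round 2, and the highest round 2 library lay just under the lowest of round 1 (log2 fold change -0.96 ± 0.17, adjusted p = 0.0109). Runx2, the master regulator of osteoblasts, averaged 57.6 CPM in round 2 and 86.8 CPM in round 1 (-0.66 ± 0.16, adjusted p = 0.0538).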

How the data were processed

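Bulk RNA of 8 libraries, 2 for each of 4 groups, was read from 1 deposited table of counts per gene. The tools named, per the submitters' processing notes, are STAR, featureCounts and DESeq2, with build mm10. Their versions, the strand of counting and the annotation are not given in the sources used here, and the table's name points to htseq, so the counting program is not settled. Antisense reads can therefore not be told apart, and close paralogs may share reads. The column names' SCC and BCP were read as SSC and BCSP.

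Counts as deposited were tested with edgeR 4.0.16 in R 4.3.3 (TMM factors 0.854 to 1.06, filterByExpr with a minimum count of 10 and total of 15, robust quasi-likelihood fit) and Benjamini-Hochberg adjustment over 22153 genes. Genotype effects within a cell type and the interaction used group means, and the other comparisons an additive model, with round as a further term in the test of round. Alternatives were RLE scaling, no filter, DESeq2 1.42.0, limma-voom (limma 3.58.1), an exon length offset (lowess span 0.3), a replicate block, single rounds, single cell types and leaving out libraries. TPM used GENCODE M21 exon lengths. The models were run on simulated counts with large changes planted in well-covered genes. That run does not cover changes as small as most given here, or the length dependence of these libraries. Libraries of 1 group differed beyond counting noise (chi-square per degree of freedom 127 to 310). Fold changes are named for each called member and the 5 lowest p-values per comparison, and for further pathway genes the called and the 2 lowest. Bmp6, Id2, Id4 in BCSP, Bmpr1a and Rgmb were added after their values were seen, as were results of single rounds. Members and lists were chosen with earlier results of these data known.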

Additional observations from a re-analysis of the deposited data

Results flagged for a closer look

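Within the 4 KO and within the 4 WT libraries, the gap of the most extreme library was tested for each member with Dixon's criterion at 95%. Chance flags about 1 in 20 sets of like libraries, and 5 of 66 were flagged. Each set mixes cell types and rounds, so this rate need not hold here, and a flag can also reflect either. Id3 had 398 CPM in the WT BCSP library of round 2, against 209 to 227 CPM in the other 3 WT libraries. Smad1 had 30.1 CPM in the KO BCSP library of round 1, against 43.4 to 44.1 CPM in the other KO libraries, and Chrd had 24.5 CPM there, against 17.0 to 18.1 CPM. Bmp8a had 1.05 CPM in the WT SSC library of round 2, against 0.342 to 0.437 CPM in the other WT libraries, and Gdf6 had 0.162 CPM there, against 0.626 to 0.682 CPM.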

How the results depend on the processing

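Of 42 results on single genes named by the rule, none reversed under any alternative. Outside it, Id4 in BCSP turned to 0.37 without the WT library of round 2, to 0.03 with the length offset and to 0.01 with the replicate block, and Bmp3 over both cell types to 0.06 in round 2 alone. Across 700 values, 670 kept their direction and side of the threshold, 20 newly passed it and 10 no longer did, which were Grem1 between the rounds in 7 settings and Gdf10, Chrdl1 and Dlx5 in BCSP alone. Counts of called genes moved more. Without a filter on low counts they were 4 in SSC, 38 in BCSP, 234 over both cell types, 66 between cell types (1 member) and 1062 between rounds (5 members). DESeq2 gave 9, 20, 103, 39 (1 member) and 1128 (5 members) in the same order. limma-voom gave 1 and the exon length offset 10 over both cell types. The round numbers were not taken as a pairing, since the labels do not say what a round is and not every pair of groups correlated above 0.1 in its round differences. Over all tested genes the 6 correlations ran from 0.0234 to 0.240. Over 12482 genes above 1 CPM, WT SSC, KO SSC and KO BCSP correlated at 0.576 to 0.657 with each other, and WT BCSP at -0.0531 to 0.127 with them. Hoxd13 still separated the rounds in all 4 groups, with 26.7 CPM in round 1 and 0.349 CPM in round 2 of WT BCSP. The low correlations of WT BCSP therefore do not show that its rounds differ from those of the other groups. Without a block, differences between the rounds stay in the spread of the genotype and cell type tests. A member not called there is not shown to be unchanged. With a replicate block the counts were 2 in SSC, 3 in BCSP, 2 in the interaction, 28 over both cell types and 2 between cell types. With the block and the length offset together they were 4, 10, 2, 52 and 12, and no member was called in either, although the block cut the SE of Gdf10 in SSC to 0.24, against 0.79 without it. Leaving out 1 library gave 1 to 4 genes in SSC, 1 to 2 in BCSP, 1 to 12 over both cell types, 1 to 3 between cell types, and 208 to 4072 between rounds with 2 to 9 members. The members' median log2 fold change then ran from -0.0569 to 0.214 in SSC, from -0.0510 to 0.156 in BCSP, from -0.0413 to 0.139 in the interaction and from -0.0846 to 0.0660 between rounds. Without both BCSP libraries of round 2, 11 genes were called over both cell types, 36 between cell types and 1932 between rounds (5 members, median 0.0822). Round 1 alone gave 185 genes (2 members) by genotype and 357 (3 members) by cell type, and round 2 alone 117 and 2. Between rounds, SSC alone gave 1956 genes (5 members, median 0.0792) and BCSP alone 49 genes and 0 members. With 2 libraries per group, a common biological coefficient of variation of 0.525 limits what these tests can call, and the counts of Gdf7, Gdf6 and Bmp8a limit those genes further.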
